A study of Homo sapiens with 33 samples.

Results

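The genes described here build ribosomes. They are 45 named human genes of ribosome biogenesis and the nucleolus, chosen by symbol and grouped by role, and 44 of them were found among the 62446 gene rows of the count files. The gene BOP1 matched no row by its identifier and was not analysed here. Their transcript levels were followed in 33 RNA sequencing libraries from acute lymphoblastic leukaemia (ALL) cell lines, in 11 groups of 3 libraries each.

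Parental Nalm6 is a B-cell precursor ALL line. It was grown untreated, with 0.5 µM CHIR-99021, which blocks the kinase GSK3 and so acts as a Wnt agonist, or with the glucocorticoid prednisolone at 5 µM. Dexamethasone, a more potent glucocorticoid, was given at 100 nM to a separately titled set of parental Nalm6 that has untreated libraries of its own. TLE1 KO is Nalm6 with a knockout of TLE1, which encodes a transcriptional co-repressor. It was grown untreated, with prednisolone at 5 µM, or with dexamethasone at 100 nM, and no untreated group is titled for the dexamethasone libraries. CEM, a T-cell ALL line, was grown untreated, with CHIR-99021 at 2 µM, or with prednisolone at 10 µM. Every treatment lasted 24 h, and the labels describe the Nalm6 and TLE1 KO medium as containing charcoal-stripped serum. How the knockout was made, and whether it is 1 clone, is not given in the sources used here. Replicates are numbered libraries, described for part of the series as independent experiments. Elsewhere p-values measure only the spread between libraries, which may be technical.

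Ribosome production starts in the nucleolus, where RNA polymerase I (Pol I) copies the ribosomal RNA genes into a long precursor. Small nucleolar ribonucleoproteins (snoRNPs) modify that precursor, and large sets of assembly factors cut and fold it into the small and the large subunit. The process takes up much of a dividing cell's resources, and the transcription factor MYC is known to drive many of its genes through a DNA motif called the E-box (CACGTG), which MYC binds together with its partner MAX. In lymphoid leukaemia, glucocorticoids are used as drugs because they stop growth and kill lymphoblasts.

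The E-box was searched in the promoters of these genes, from 250 bases before to 50 bases after the annotated start in RefSeq's GRCh38.p14 table. Of the 44 genes, 39 had a promoter in that table, and 9 of these had 2 starts, which gave 48 windows. CACGTG, which reads the same on both strands, was present in 14 of 39 of these genes (35.9%), against 10.9% of the 15842 protein-coding genes in the table. It was present in 29 of 85 other ribosome biogenesis genes (34.1%). All 14 copies lay close to the start, from 31 bases before it to 36 bases after it. The 8 stretches below belong to genes whose levels are described further on, and they show how different the bases around the motif are. Capitals mark the E-box, and each stretch is 30 bases of GRCh38.p14, printed 5′ to 3′ on the gene's own strand.
BYSL, chr6:41921515-41921544, plus strand: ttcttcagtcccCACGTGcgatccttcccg
MRTO4, chr1:19251807-19251836, plus strand: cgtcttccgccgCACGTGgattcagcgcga
GNL3, chr3:52686026-52686055, plus strand: ggcttcagttcaCACGTGgcgccagcggag
MYBBP1A, chr17:4555340-4555369, minus strand: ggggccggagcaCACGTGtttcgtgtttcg
RRP9, chr3:51941892-51941921, minus strand: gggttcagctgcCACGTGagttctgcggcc
DDX21, chr10:68956604-68956633, plus strand: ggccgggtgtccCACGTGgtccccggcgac
UTP20, chr12:101280083-101280112, plus strand: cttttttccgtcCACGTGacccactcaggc
UTP4, chr16:69132621-69132650, plus strand: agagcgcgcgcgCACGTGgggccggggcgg
In the first 4 the motif starts after the transcription start, and in the other 4 before it. The related motif CACGCG, a different hexamer that can overlap CACGTG only in part and was searched on both strands, was found in 15 of 39 genes (38.5%), against 18.1% of protein-coding genes. The full palindromic glucocorticoid response element was found in the windows of 0 of 39 genes and of 1 of 27305 genes in the table, and partial or more distant sites were not searched.

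Gene totals of the 33 libraries ran from 25292579 to 61930057 counts. Levels are given as CPM, counts scaled to a library total of 1000000, as mean ± SD over 3 libraries or library by library in the order of the replicate numbers. A level is thus a share of a library's RNA, and in bulk samples fewer expressing cells and less RNA per cell cannot be told apart. The lines matched their labels by defining markers: the B-cell marker PAX5 was at most 0.71 CPM in every CEM library, and the T-cell markers CD3D and CD3E were at 0 in every Nalm6 and TLE1 KO library but replicate 1 of the untreated dexamethasone set, with 0.09 and 0.18 CPM. Wider lists of 9 markers each were less clear-cut. In untreated CEM only 4 of 9 B-cell markers were under 1 CPM, and the list summed to 486 CPM, against 3518 CPM in untreated Nalm6. In untreated Nalm6 7 of 9 T-cell markers were under 1 CPM, and the list summed to 35.9 CPM, against 2031 CPM in untreated CEM. TLE1 transcript was present in every TLE1 KO library. It read 25.4, 24.0 and 24.0 CPM untreated, 54.5, 69.0 and 64.1 CPM under prednisolone and 57.5, 55.3 and 59.0 CPM under dexamethasone. In parental Nalm6 it read 30.2, 34.0 and 31.8 CPM untreated and 110.0, 113 and 116 CPM under prednisolone. In the dexamethasone set it read 26.0, 27.2 and 27.9 CPM untreated and 134, 131 and 129 CPM treated. The TLE1 KO libraries were thus below the parental ones of the same treatment, and their treated libraries were above untreated Nalm6. Without treatment the log2 fold change between the lines was -0.36 ± 0.06 SE, with an edgeR adjusted p of 0.002. One library stood apart among these genes: CHIR-99021 replicate 3 of Nalm6 had 889 CPM of NCL, against 1467 and 1617 CPM in the other 2.

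All 44 genes passed the filter on low counts in every comparison, and the lowest count of any of them in any library was 88, for NOP2. Compared per kilobase of exon not shared with another gene on the same strand, as the mean over all 33 libraries, the nucleolar phosphoprotein NPM1 was the highest at 338 CPM per kb, followed by NCL at 151, the helicase DDX21 at 84.6, NOLC1 at 76.1 and NOP56 at 75.5. The lowest were the Pol I subunit POLR1C at 6.91 CPM per kb and the rRNA methyltransferase NOP2 at 1.80. NOP2 shares 54.4% of its exon bases with another gene on the same strand and PPAN 59.8%, so reads of both genes may have been left uncounted. NPM1 has 45 pseudogenes by name, and its level may be understated because reads that map to several places are not counted.

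Summed over the 44 genes, untreated Nalm6 reached 9735.5 ± 137 CPM (SD, n = 3) and the prednisolone group 6871 ± 67.0 CPM. The untreated dexamethasone set reached 8945 ± 85.9 CPM, and the dexamethasone group 5769.5 ± 18.8 CPM. TLE1 KO stood at 8767 ± 244 CPM untreated, 6663 ± 101 CPM under prednisolone and 6177 ± 20.2 CPM under dexamethasone. CEM stood at 6822 ± 102 CPM untreated and 5264 ± 38.3 CPM under prednisolone. In each of these lines no glucocorticoid library reached the lowest untreated library. For TLE1 KO under dexamethasone, those untreated libraries are not titled as its control. There an effect of the drug and a difference between sets cannot be told apart. Under CHIR-99021 the sum was 10627 ± 529 CPM in Nalm6 and 7210 ± 98.7 CPM in CEM, in both lines above the untreated libraries without overlap.

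**Figure D1:**
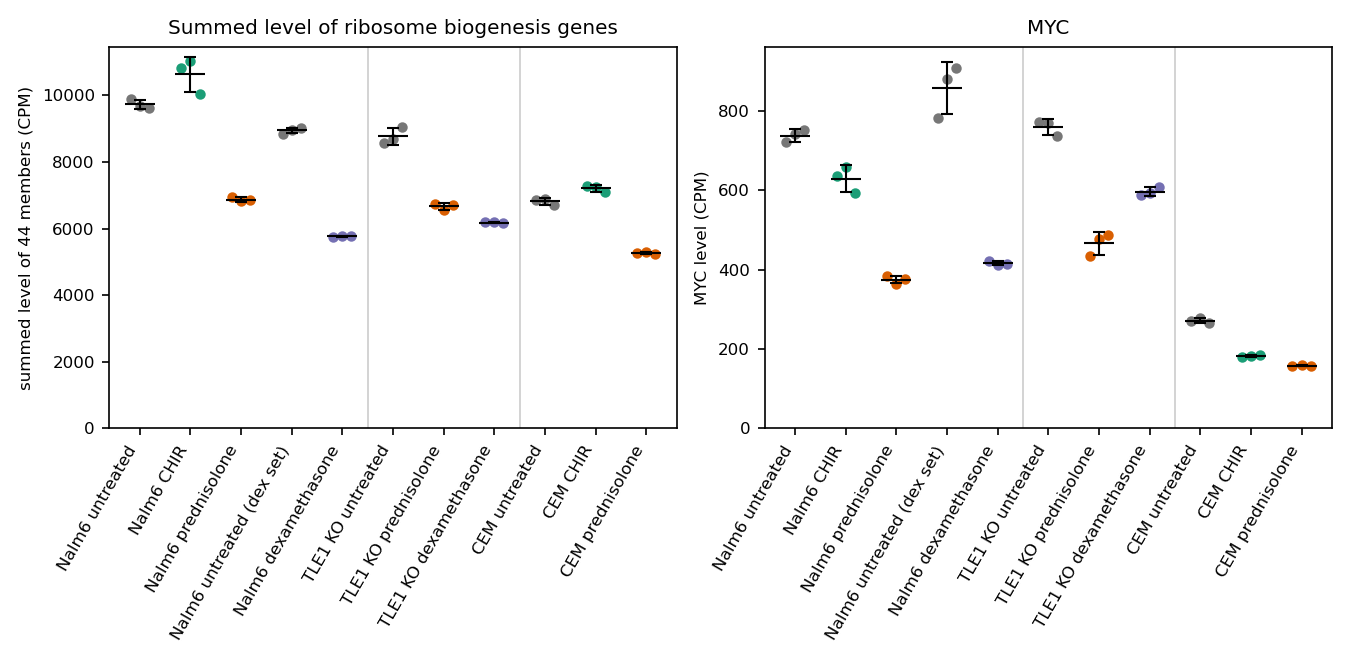
Summed level of the 44 ribosome biogenesis genes (left) and level of MYC (right), both in CPM on axes that start at 0, in the 11 groups. Points are libraries, and lines and bars are the mean and SD of 3. The summed level is lower in every glucocorticoid group and higher under CHIR-99021 than in the untreated cells of the same line. MYC transcript, in contrast, is lower under both kinds of drug. TLE1 KO under dexamethasone has no untreated group titled as its own.

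The first question was how glucocorticoids changed these genes, and nearly all of them fell. Prednisolone lowered 42 of 44 genes in Nalm6 (median log2 fold change -0.47, a fall by 28.0%), and dexamethasone lowered 43 of 44 (median -0.61, a fall by 34.3%). Prednisolone lowered 39 of 44 in TLE1 KO (median -0.38) and 42 of 44 in CEM (median -0.39). No gene of the list rose in any of the 4 comparisons, apart from 1 that passed in TLE1 KO when untreated replicate 3 was left out. A gene counts as higher or lower here at an adjusted p under 0.05 in edgeR's quasi-likelihood test, adjusted over all genes tested. Of all genes tested, 26.1% were lower and 28.7% higher under prednisolone in Nalm6, and 30.2% were lower and 30.2% higher under dexamethasone. In TLE1 KO 21.9% were lower and 19.8% higher, and in CEM 22.8% and 22.3%. The median over all genes tested lay within 0.034 of 0 in each. The falls were modest in size: only BYSL under dexamethasone had a log2 fold change beyond -0.9. The 42 genes lowered by prednisolone in Nalm6 were all among the 43 lowered by dexamethasone (100% of 42 and 97.7% of 43), in groups that share no library. Prednisolone in CEM and in Nalm6 had 41 lowered genes in common (97.6% of either list). With nearly all 44 genes lowered in each comparison, lists this long must share most of their genes. Neither overlap is therefore separate evidence of agreement.

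The Pol I genes had the median nearest 0 of the 7 role groups in all 4 comparisons, -0.30 and -0.42 under prednisolone and dexamethasone in Nalm6, -0.24 in TLE1 KO and -0.25 in CEM. All 5 fell in both Nalm6 comparisons, 4 of 5 in TLE1 KO and 4 of 5 in CEM. The ranking did not extend to 11 other Pol I genes outside the list. Among the groups of other ribosome biogenesis genes, these had the median furthest from 0 under prednisolone and dexamethasone in Nalm6 (-0.35 and -0.63). Their median was nearest 0 in TLE1 KO (-0.23) and neither nearest nor furthest in CEM (-0.26). POLR1B, one of the catalytic subunits, had 156, 155 and 152 CPM in untreated Nalm6 and 111, 108 and 105 CPM under prednisolone, groups that were far apart (log2 fold change -0.55 ± 0.04 SE, edgeR adjusted p = 8.35e-10). It went from 136, 136 and 132 CPM to 84.4, 86.4 and 82.8 CPM under dexamethasone (log2 fold change -0.71 ± 0.04).

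UBTF, the factor that coats active ribosomal RNA genes, read 241, 244 and 248 CPM in untreated Nalm6 and 207, 202 and 207 CPM under prednisolone (log2 fold change -0.28 ± 0.04 SE, edgeR adjusted p = 3.43e-06). In TLE1 KO it went from 229, 239 and 226 CPM to 192, 195 and 191 CPM (-0.30 ± 0.06). In CEM the untreated libraries had 227, 237 and 226 CPM and the prednisolone libraries 239, 237 and 232 CPM, so that the groups overlapped. The CEM log2 fold change was 0.00 with a 95% interval from -0.06 to 0.07. RRN3, which brings Pol I to its promoter and responds to growth signals, was lower in both Nalm6 comparisons (-0.25 and -0.42) and in CEM (-0.11), whereas in TLE1 KO its log2 fold change of -0.12 had a 95% interval from -0.28 to 0.05.

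Of the 6 core snoRNP proteins on the list, all were lower in Nalm6 under either drug and in CEM, and 5 of 6 in TLE1 KO. Further core proteins, such as NOP10, are counted among the other pathway genes. The box C/D proteins NOP56, NOP58 and FBL, which guide and carry out rRNA methylation, fell in all 4 comparisons. NOP56 had 470, 451 and 451 CPM in untreated Nalm6 and 352, 351 and 345 CPM under prednisolone, and it went from 441, 429 and 428 CPM to 318, 321 and 322 CPM in CEM. Its log2 fold changes were -0.42 ± 0.04 in Nalm6 and -0.46 ± 0.03 in CEM, and neither pair of groups overlapped. FBL, the methyltransferase itself, fell in TLE1 KO from 185, 208 and 180 CPM to 115, 119 and 128 CPM (-0.70 ± 0.07 SE, edgeR adjusted p = 2.81e-05). That fall started from a higher untreated level than in Nalm6, where FBL went from 133, 130 and 127 CPM to 98.0, 89.4 and 91.6 CPM (-0.52 ± 0.04).

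The box H/ACA proteins on the list, which turn uridines of rRNA into pseudouridine, fell as well, except for GAR1 in TLE1 KO. DKC1, the pseudouridine synthase, had 238, 234 and 231 CPM in untreated Nalm6 and 160, 158 and 162 CPM under prednisolone. The dexamethasone set had 195, 201 and 193 CPM untreated and 123, 121 and 121 CPM treated. These log2 fold changes were -0.58 ± 0.04 and -0.72 ± 0.04, and the CEM value was -0.55 ± 0.03. GAR1 spread widely between libraries: in TLE1 KO they read 19.6, 25.1 and 15.8 CPM untreated and 18.4, 13.9 and 16.0 CPM under prednisolone, which overlap (log2 fold change -0.36, 95% interval -0.72 to -0.01, edgeR adjusted p = 0.0931).

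All 3 nucleolar phosphoproteins fell in all 4 comparisons. NPM1 (nucleophosmin), a chaperone of ribosomal and histone proteins, had 1812, 1787 and 1770 CPM in untreated Nalm6 and 1174, 1149 and 1166 CPM under prednisolone (log2 fold change -0.65 ± 0.04 SE, edgeR adjusted p = 1.79e-10). In the dexamethasone set it went from 1933, 1775 and 1784 CPM to 1040, 1064 and 1077 CPM (-0.82 ± 0.05). In CEM the same gene stood at 713, 664 and 689 CPM untreated and at 567, 570 and 560 CPM under prednisolone, again without overlap (-0.31 ± 0.03). NOLC1, a scaffold that ties snoRNPs to the nucleolus, was among the 3 genes with the largest falls in both Nalm6 comparisons and in CEM. It went from 416, 398 and 405 CPM to 259, 242 and 238 CPM under prednisolone in Nalm6 (-0.75 ± 0.04), and from 349, 362 and 336 CPM to 226, 234 and 226 CPM in CEM (-0.64 ± 0.03).

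Of the 14 small subunit factors, all 14 fell in Nalm6 under either drug and in CEM, and 13 of 14 in TLE1 KO, where UTP15 had a log2 fold change of -0.18 (95% interval -0.39 to 0.03). BYSL (bystin), which binds the precursor of the small subunit, had the largest fall of the whole list in all 4 comparisons. Its libraries read 54.8, 53.1 and 52.7 CPM in untreated Nalm6 and 27.9, 31.1 and 30.0 CPM under prednisolone (log2 fold change -0.87 ± 0.05 SE, edgeR adjusted p = 5.0e-11). The dexamethasone set read 43.8, 49.5 and 46.0 CPM untreated and 21.9, 21.4 and 22.5 CPM treated (-1.12 ± 0.05). In TLE1 KO it went from 53.9, 53.8 and 52.3 CPM to 28.4, 31.2 and 31.8 CPM (-0.85 ± 0.06), and in CEM from 48.4, 49.8 and 47.3 CPM to 29.9, 29.1 and 30.7 CPM (-0.73 ± 0.04). In none of the 4 did a treated library reach the lowest untreated one.

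HEATR1, a large scaffold of the early small subunit precursor, went from 268, 262 and 260 CPM to 217, 210 and 201 CPM under prednisolone in Nalm6 (log2 fold change -0.36 ± 0.04 SE). RRP9, a protein of the U3 snoRNP that helps the first cuts of the precursor, fell in CEM from 54.0, 49.4 and 52.6 CPM to 34.4, 34.4 and 32.7 CPM (-0.65 ± 0.04). UTP4, which works in the same early complex, had the second-largest fall in TLE1 KO, from 52.6, 59.2 and 43.7 CPM to 29.1, 32.1 and 34.9 CPM (-0.74 ± 0.10 SE, edgeR adjusted p = 0.000269). Its untreated knockout libraries were widely spread, but the lowest of them was above every treated one.

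Of the 14 large subunit factors, 12 fell under prednisolone in Nalm6, 13 under dexamethasone, 12 in TLE1 KO and 13 in CEM. MRTO4, which prepares the site of the ribosomal stalk, had 133, 131 and 126 CPM in untreated Nalm6 and 81.2, 78.9 and 81.9 CPM under prednisolone (log2 fold change -0.72 ± 0.04 SE, edgeR adjusted p = 6.59e-11). Under dexamethasone it had 68.1, 68.3 and 70.5 CPM against 124, 123 and 118 CPM (-0.86 ± 0.04). NOC2L, which accompanies large subunit precursors out of the nucleolus, went from 249, 242 and 247 CPM to 183, 181 and 195 CPM under prednisolone (-0.43 ± 0.04). Neither gene's treated and untreated groups overlapped.

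Exceptions were found in the large subunit group. NIP7, which acts in late pre-rRNA processing, had 106, 103 and 101 CPM in untreated Nalm6 and 102, 101 and 105 CPM under prednisolone, groups that overlapped (log2 fold change -0.03, 95% interval -0.12 to 0.05). In TLE1 KO its log2 fold change was 0.07 (95% interval -0.11 to 0.26). The same gene fell under dexamethasone, from 108, 100 and 100 CPM to 87.7, 86.3 and 87.9 CPM (-0.27 ± 0.05 SE, edgeR adjusted p = 0.000115). It fell in CEM too, from 70.9, 69.6 and 70.6 CPM to 55.7, 54.5 and 54.6 CPM (-0.39 ± 0.03 SE, edgeR adjusted p = 2.11e-08). NOP2 passed the test in none of the 4 comparisons, with log2 fold changes from -0.30 to -0.01. Over all 33 libraries of the series it read 2.41 to 5.43 CPM. In CEM it had 2.62, 3.51 and 2.90 CPM untreated and 2.56, 2.41 and 2.51 CPM under prednisolone. These did not overlap, and edgeR's p was under 0.05 there before adjustment.

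DDX21, an RNA helicase that links Pol I transcription to processing, and MYBBP1A, a nucleolar regulator, fell in all 4 comparisons. DDX21 had 580, 555 and 550 CPM in untreated Nalm6 and 388, 376 and 382 CPM under prednisolone (log2 fold change -0.58 ± 0.04). Under dexamethasone it had 293, 303 and 307 CPM against 532, 529 and 519 CPM (-0.84 ± 0.04), and in CEM 253, 251 and 248 CPM against 377, 364 and 368 CPM (-0.59 ± 0.03).

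**Figure D2:**
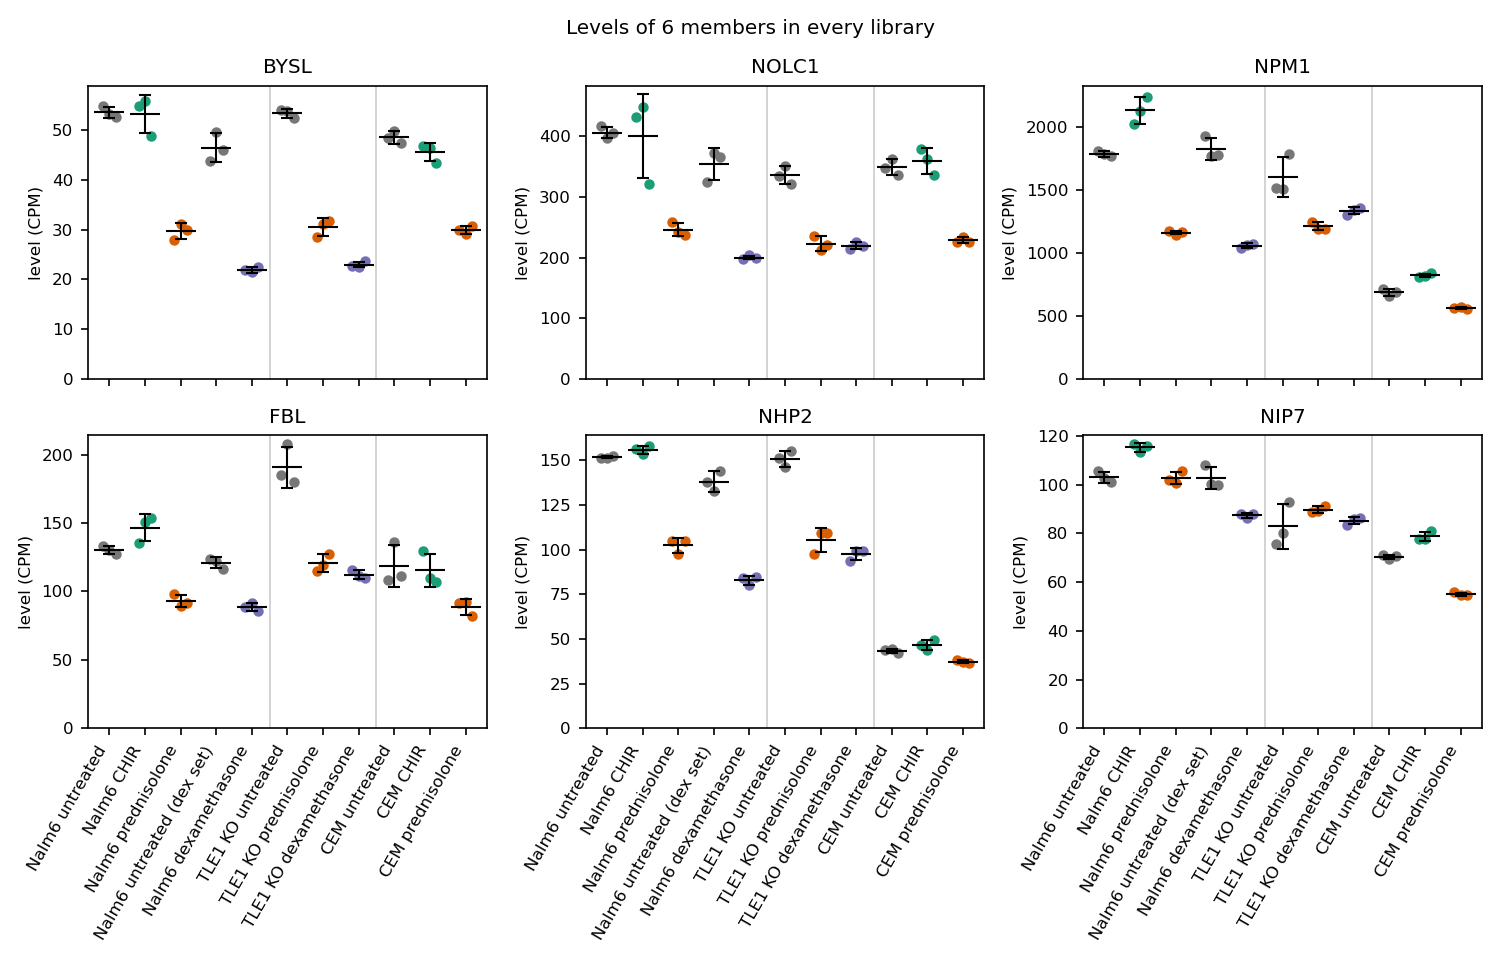
Levels of BYSL, NOLC1, NPM1, FBL, NHP2 and NIP7 in CPM, on axes that start at 0, in the 11 groups. Points are the 3 libraries of a group, and lines and bars are their mean and SD. BYSL and NOLC1 lie lower in every glucocorticoid group, NIP7 of Nalm6 lies level under prednisolone and lower under dexamethasone, FBL is highest in untreated TLE1 KO, and NHP2 and NPM1 are lowest in CEM.

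Other genes of the pathway, a list of 100 of which 99 were tested, fell in their majority too. Of these, 86 fell and 1 rose under prednisolone in Nalm6, 91 fell and 2 rose under dexamethasone, 60 fell and 1 rose in TLE1 KO under prednisolone, and 77 fell and 2 rose in CEM. The largest fall in each Nalm6 and TLE1 KO comparison was that of POLR1G, a Pol I subunit, from 58.6 ± 1.95 to 30.1 ± 1.61 CPM under prednisolone (SD, n = 3, log2 fold change -0.99) and from 53.4 ± 1.53 to 22.6 ± 0.727 CPM under dexamethasone (-1.28). In CEM it was LYAR, a nucleolar growth regulator, from 63.6 ± 1.87 to 39.5 ± 0.961 CPM (-0.72). The few that rose were led by LSG1, a GTPase that acts late and in the cytoplasm, from 93.6 ± 1.55 to 113 ± 3.14 CPM under prednisolone in Nalm6 (0.24), and by TAF1C, a part of the Pol I promoter factor SL1, from 66.2 ± 3.13 to 82.9 ± 1.76 CPM in CEM (0.29).

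MYC fell in all 4 comparisons. It had 722, 741 and 752 CPM in untreated Nalm6 and 383, 364 and 378 CPM under prednisolone (95% interval of the log2 fold change -1.09 to -0.92, edgeR adjusted p = 7.75e-13). Its log2 fold change was -1.08 ± 0.05 under dexamethasone, -0.75 ± 0.06 in TLE1 KO and -0.81 ± 0.03 in CEM. Genes with an E-box in the window had a median log2 fold change of -0.51 under prednisolone in Nalm6 (14 genes), and those without -0.43 (25 genes). The same medians were -0.65 and -0.56 under dexamethasone, and under prednisolone -0.44 and -0.37 in TLE1 KO and -0.48 and -0.32 in CEM. Under CHIR-99021, where MYC transcript was lower too, they were 0.16 and 0.15 in Nalm6 and 0.08 and 0.07 in CEM. These medians are descriptions of overlapping ranges, and no test was made between them.

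A list of 10 proliferation genes, among them MKI67, TOP2A and CDK1, was read beside these falls. Its summed level went from 3236 ± 24.2 to 2385 ± 91.7 CPM under prednisolone in Nalm6 and from 3064 ± 25.2 to 1974 ± 33.9 CPM under dexamethasone, with 6 and 9 of 10 genes lower. In TLE1 KO it went from 3027 ± 10.4 to 1872 ± 72.4 CPM under prednisolone, with 8 of 10 lower. In CEM it went from 4523 ± 19.6 to 4390 ± 13.5 CPM, with 4 of 10 lower and 1 higher, while 42 of the 44 ribosome biogenesis genes fell. What part a changed share of dividing cells had in the falls was not tested.

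**Figure D3:**
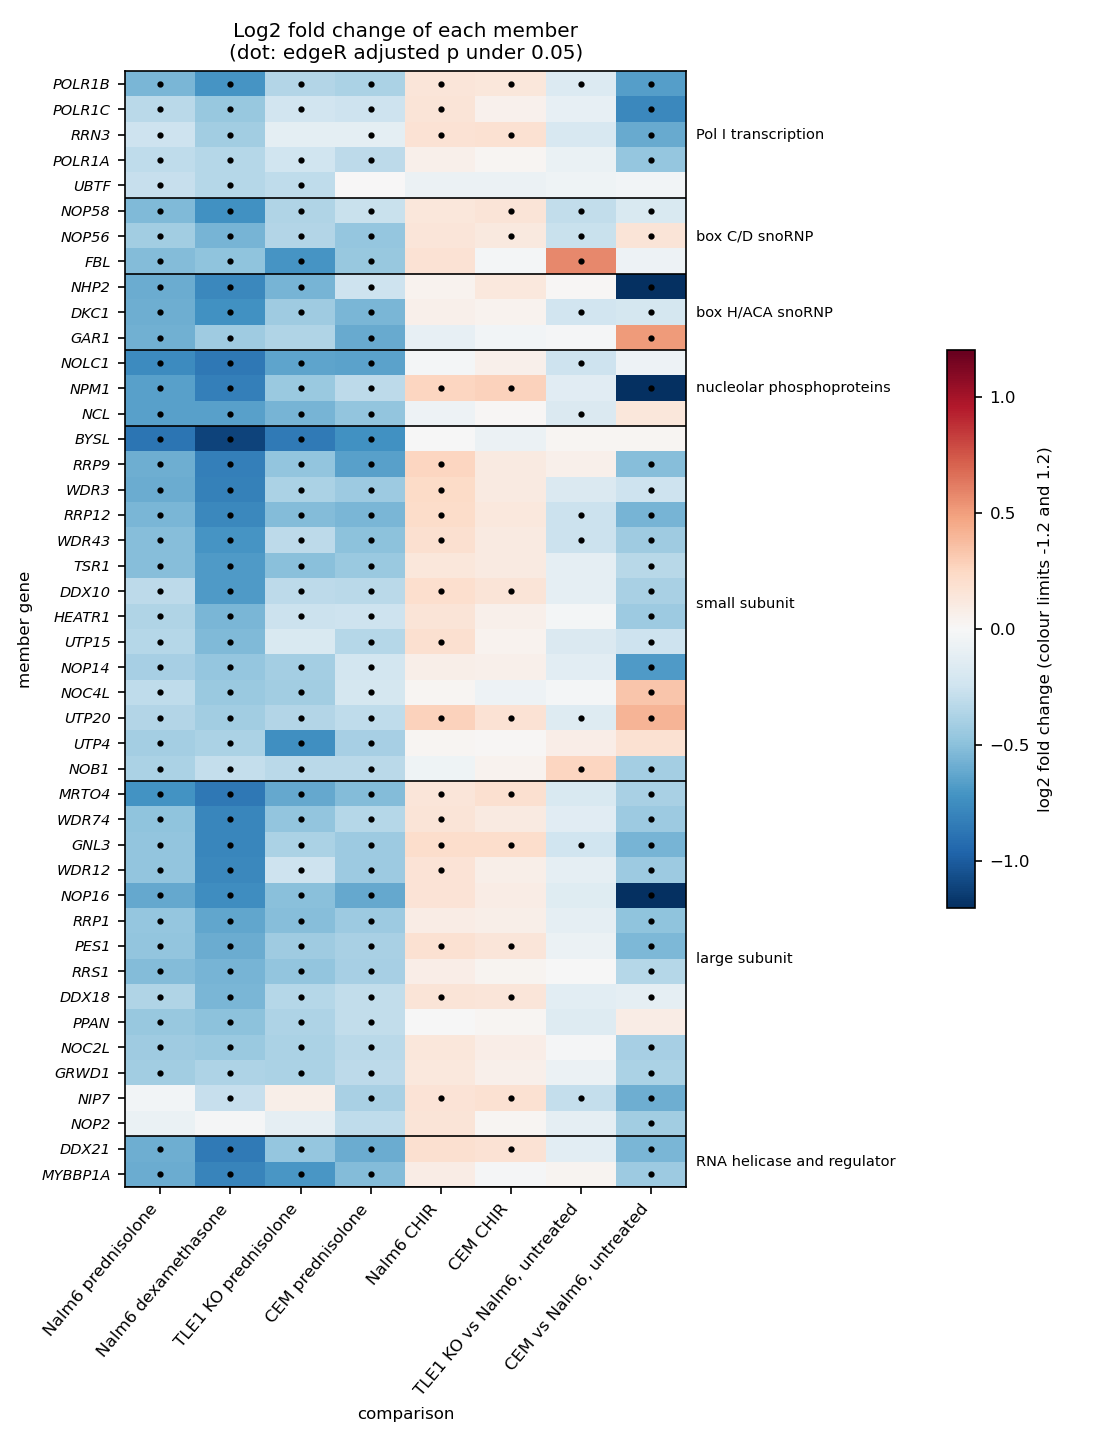
Log2 fold change of the 44 genes (rows, ordered by role) in 8 comparisons (columns), in colour from -1.2 (blue) to 1.2 (red), with a dot where edgeR's adjusted p is under 0.05. The 4 glucocorticoid columns are blue nearly throughout, the 2 CHIR-99021 columns are pale red, and the last column, untreated CEM against untreated Nalm6, holds the deepest blue at NHP2, NOP16 and NPM1, whose values lie beyond the colour limit.

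The next question was the effect of the Wnt agonist. CHIR-99021 raised 18 of 44 genes in Nalm6 and lowered none, with a median log2 fold change of 0.15, a rise of 10.8%, and it raised 13 of 44 and lowered none in CEM, with a median of 0.08. Among all genes tested, 3.16% were higher and 4.72% lower in Nalm6, and 5.41% and 5.43% in CEM. The log2 fold changes were small, at most 0.28 in either line. Of the other pathway genes, 32 of 99 rose and 1 fell in Nalm6, and 26 rose and 1 fell in CEM. Both lines, which share no library, had 10 raised genes in common (55.6% of the 18 and 76.9% of the 13). The overlap over all genes tested was not computed for comparison. Both lists also change when single libraries are left out, as given below, so the shared genes are not a fixed set.

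In Nalm6 the raised genes were 7 of 14 small subunit factors, 7 of 14 large subunit factors, 3 of 5 Pol I genes and NPM1. No snoRNP protein of the list passed the test. The 3 box C/D proteins came close, with a median log2 fold change of 0.15 and no overlap between groups. All 3 had an unadjusted edgeR p under 0.05, and their smallest adjusted p was 0.0622. The box H/ACA proteins had a median of 0.04, and none had an unadjusted p under 0.05. UTP20, a scaffold of the small subunit precursor, had 134, 119 and 122 CPM under CHIR-99021 against 105, 103 and 102 CPM (log2 fold change 0.28 ± 0.05 SE, edgeR adjusted p = 0.00565). RRP9 had 87.8, 90.9 and 98.4 CPM against 77.8, 76.1 and 78.5 CPM (0.26 ± 0.05). NPM1 had 2028, 2134 and 2245 CPM against the 1812, 1787 and 1770 CPM given above (0.26 ± 0.05), again without overlap. The NPM1 call was lost without any 1 of the untreated libraries, and the RRP9 call without untreated replicate 2 or 3. The count in Nalm6 rests on single libraries. It was 35 without CHIR-99021 replicate 3, the library that stood apart, and 8 and 11 without CHIR-99021 replicates 1 and 2. It was 8, 2 and 1 without untreated replicates 1, 2 and 3.

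In CEM the list was led by NPM1, with 812, 819 and 840 CPM under CHIR-99021 against 713, 664 and 689 CPM (log2 fold change 0.28 ± 0.03 SE, edgeR adjusted p = 0.000366). GNL3 (nucleostemin), a GTPase of the nucleolus, had 183, 194 and 197 CPM against 173, 162 and 168 CPM (0.21 ± 0.04), and MRTO4 had 104, 108 and 112 CPM against 98.8, 92.9 and 94.9 CPM (0.19 ± 0.04). None of these 3 overlapped between groups. DDX21 (0.17 ± 0.04) and NOP56 (0.11 ± 0.03) rose too. The DDX21 call was lost without untreated replicate 3 or CHIR-99021 replicate 2, and the NOP56 call without any 1 library but CHIR-99021 replicate 1. The count of 13 became 5 without CEM CHIR-99021 replicate 2, and 8, 7 and 5 without untreated replicates 1, 2 and 3.

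MYC protein was not measured, and MYC transcript was lower, not higher. It fell under CHIR-99021 in CEM, from 270, 278 and 265 CPM to 179, 183 and 185 CPM (log2 fold change -0.55 ± 0.04 SE, edgeR adjusted p = 4.91e-06). In Nalm6 it read 636, 659 and 592 CPM against 722, 741 and 752 CPM (-0.23 ± 0.05 SE, edgeR adjusted p = 0.0245), a call that was lost without any 1 of the untreated libraries and without CHIR-99021 replicate 1. Among the other pathway genes, RRP15, a large subunit factor, rose most in Nalm6, from 40.1 ± 1.46 to 52.9 ± 1.33 CPM (0.40 ± 0.04), and TTF1, the Pol I termination factor, rose most in CEM, from 76.4 ± 1.62 to 95.1 ± 2.13 CPM (0.33 ± 0.04). The falls were those of PIH1D1, a snoRNP assembly factor, in Nalm6 (-0.20) and UTP25, a small subunit factor, in CEM (-0.17), each lost in 5 of 6 fits without a library. The proliferation genes summed to 2938 ± 25.0 CPM under CHIR-99021 in Nalm6 and to 4221 ± 20.3 CPM in CEM, both below untreated.

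The difference between the lines' CHIR-99021 responses, at 2 µM in CEM and 0.5 µM in Nalm6, passed the test for 0 of 44 genes in edgeR and 0 in DESeq2, beside 1 gene at an unadjusted p under 0.05. Among all genes, 0.63% were higher and 0.545% lower in that contrast. With different doses, an effect of the line and one of the dose cannot be told apart.

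TLE1 KO and parental cells were compared first without treatment. Compared with untreated Nalm6, 11 of 44 genes were lower in TLE1 KO and 2 were higher, with a median log2 fold change of -0.12, where 11.8% of all genes were lower and 15.3% higher. Of the other pathway genes, 21 of 99 were lower and 2 higher. The count of lower genes is uncertain: it was 27 without TLE1 KO replicate 3, in which NPM1 read 1790 CPM against 1518 and 1510 CPM in the other 2. It was 6 without replicate 1 or 2 of TLE1 KO, and 5 without any of the untreated Nalm6 libraries.

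FBL went the other way. It had 185, 208 and 180 CPM in untreated TLE1 KO and 133, 130 and 127 CPM in untreated Nalm6, a wide gap (log2 fold change 0.58 ± 0.06 SE, edgeR adjusted p = 0.000159). Its box C/D partners were lower: NOP58 had 176, 169 and 192 CPM against 231, 221 and 217 CPM (-0.29 ± 0.06), and NOP56 had 371, 358 and 393 CPM against 470, 451 and 451 CPM (-0.27 ± 0.05). All 3 kept these calls in every fit without a library. NOB1, the nuclease that makes the end of the small subunit rRNA, was higher at 73.5, 74.7 and 62.3 CPM against 56.9, 60.5 and 61.2 CPM (0.26 ± 0.07), and NIP7 was lower at 75.4, 80.0 and 93.0 CPM against 106, 103 and 101 CPM (-0.29 ± 0.07). Both calls were lost without any 1 of the untreated Nalm6 libraries and without TLE1 KO replicate 2. Among the other pathway genes, TTF1 was the lowest in TLE1 KO (-0.33 ± 0.05) and NOP10, a box H/ACA protein, the highest (0.18 ± 0.05). MYC did not pass the test (760 ± 19.8 against 738 ± 15.4 CPM, log2 fold change 0.07, 95% interval -0.03 to 0.17).

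The prednisolone response itself, at the same 5 µM, was then compared between TLE1 KO and parental cells. The difference of the log2 fold changes passed the test for 0 of 44 genes in edgeR and 0 in DESeq2, and for 0 of 99 other pathway genes, where 1.1% of all genes were called higher and 2.38% lower. At an unadjusted p under 0.05, 7 genes were higher and 1 lower, and the smallest adjusted p was 0.121. The difference was positive, a weaker fall in TLE1 KO, for 38 of 44 genes. Its median was 0.09, against 0.0009 over all genes tested, and the 44 genes were read in the same libraries. Summed over these genes, TLE1 KO lay below Nalm6 both untreated (8767 against 9735.5 CPM) and under prednisolone (6663 against 6871 CPM). The 95% intervals of the 44 genes lay between -0.55 and 0.62. Without TLE1 KO untreated replicate 3 the test called 7 genes higher and 1 lower. The widest intervals, in the small subunit and box H/ACA groups, thus reach beyond the size of the median fall in Nalm6 (-0.47). In the other role groups all intervals lay between -0.46 and 0.48. MYC differed by 0.28 ± 0.08, with an edgeR adjusted p of 0.0514. The proliferation genes had differences of the opposite sign, negative in all 10 with a median of -0.20, and 3 of 10 passed the test (MKI67, MCM5 and RRM2, each with a stronger fall in TLE1 KO).

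Under dexamethasone, TLE1 KO was compared with parental Nalm6 directly. Of the 44 genes, 18 were higher and 9 lower in TLE1 KO, with a median log2 fold change of 0.06, where 28.5% and 28.1% of all genes were higher and lower. Among the other pathway genes, 54 of 99 were higher and 10 lower. The largest differences were in FBL, with 116, 111 and 110 CPM in TLE1 KO and 88.4, 91.5 and 85.6 CPM in Nalm6 (0.35 ± 0.03 SE, edgeR adjusted p = 9.98e-09), and in NPM1, with 1307, 1346 and 1363 CPM against 1040, 1064 and 1077 CPM (0.35 ± 0.03). NOB1 had 67.7, 73.5 and 66.4 CPM against 54.4, 55.4 and 55.7 CPM (0.34 ± 0.04). None of these groups overlapped.

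The lower genes included 4 small and 3 large subunit factors, groups that hold 14 genes each of the 44. In the same groups 7 small and 2 large subunit factors were higher. NOC4L, a small subunit factor, had 19.0, 18.1 and 20.1 CPM against 23.4, 21.6 and 22.9 CPM (-0.23 ± 0.06), RRP12, which helps export precursors, had 49.7 ± 1.28 against 57.7 ± 2.52 CPM (SD, n = 3, log2 fold change -0.20 ± 0.04), and GRWD1, a ribosome assembly and histone-binding protein, had 69.9, 68.1 and 73.4 CPM against 79.9, 78.8 and 84.9 CPM (-0.19 ± 0.04). UTP20 (-0.19 ± 0.04) and UTP4 (-0.18 ± 0.05) were lower by a similar amount. The other pathway genes ranged from NOL6, a small subunit factor (-0.36 ± 0.03), to TAF1A, a further part of SL1 (0.62 ± 0.06). MYC was higher in TLE1 KO, at 588, 594 and 609 CPM against 422, 411 and 415 CPM (0.53 ± 0.03 SE, edgeR adjusted p = 2.71e-12). With no untreated group of the same set, a difference in the response to dexamethasone and a difference between the lines cannot be told apart here.

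**Figure D4:**
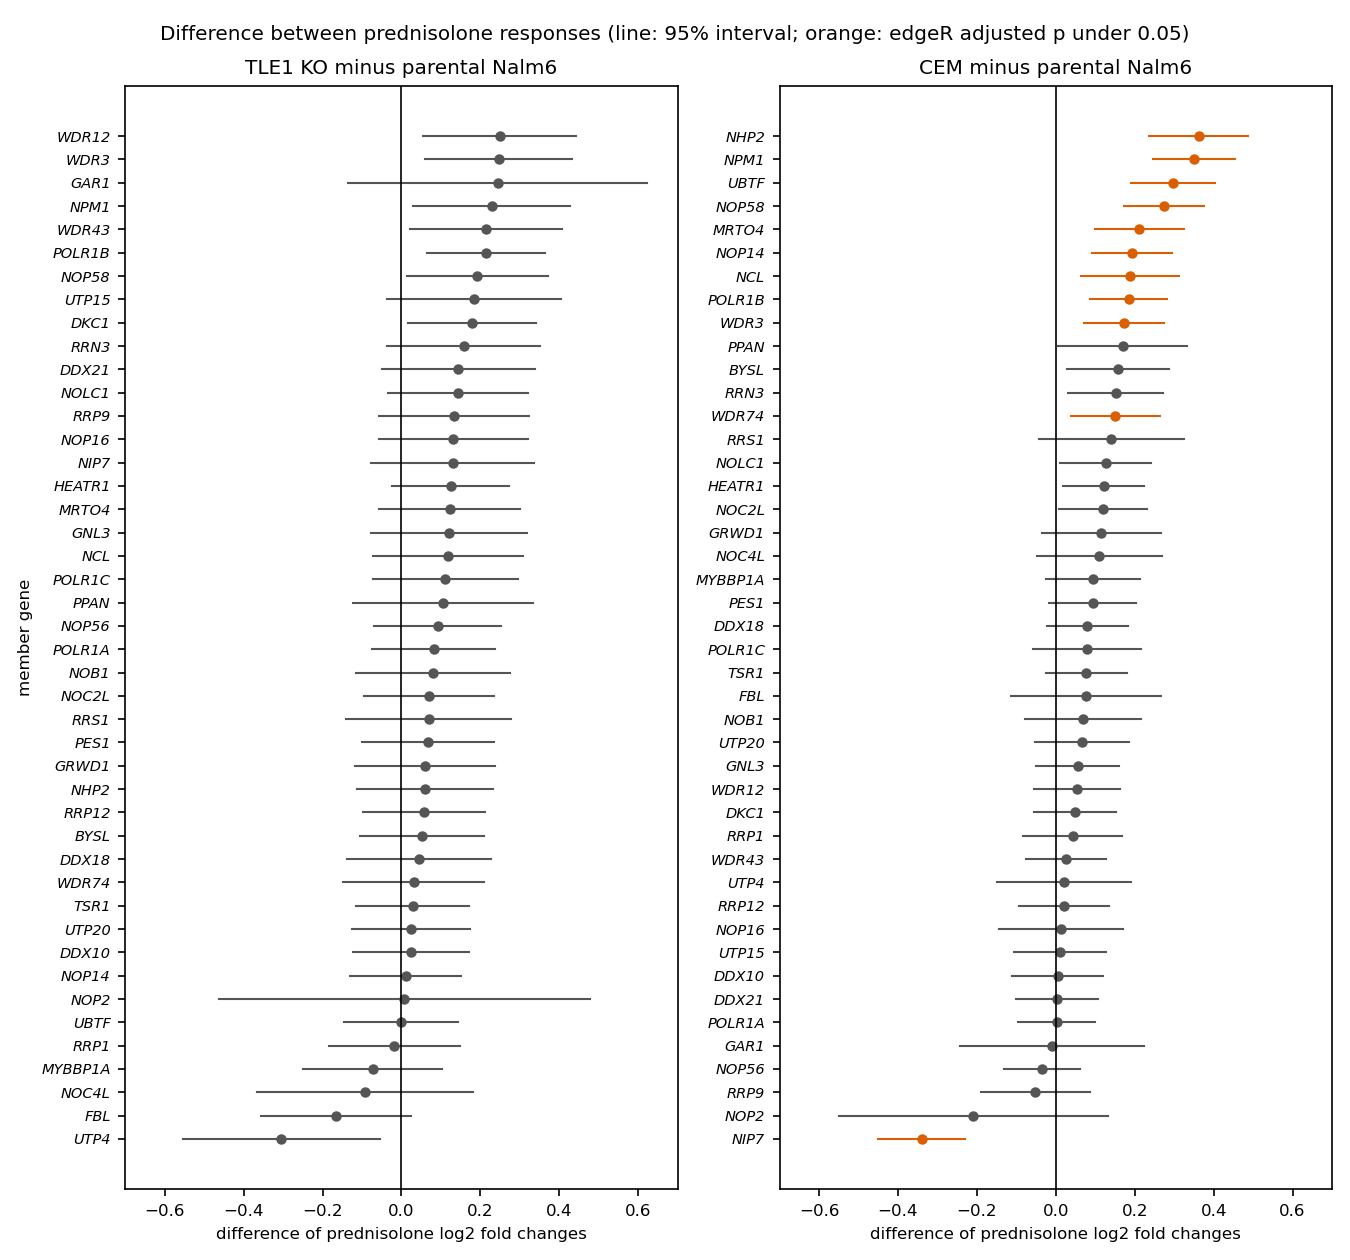
Difference of the prednisolone log2 fold changes for each of the 44 genes, TLE1 KO minus Nalm6 (left) and CEM minus Nalm6 (right), with 95% intervals. Orange marks an edgeR adjusted p under 0.05. No gene is orange on the left, where most points lie to the right of 0, and on the right 10 genes are higher and NIP7 alone is lower.

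CEM and Nalm6 were compared for prednisolone in the same way, at 10 µM and 5 µM. The difference passed the test for 11 of 44 genes: 10 were higher, meaning a weaker fall or none in CEM, and NIP7 was lower, meaning a stronger fall in CEM (-0.34 ± 0.05 SE, edgeR adjusted p = 2.27e-05). In this contrast 14.7% of all genes were higher and 12.2% lower. The largest differences were those of NHP2 (0.36 ± 0.06), NPM1 (0.35 ± 0.05) and UBTF (0.30 ± 0.05). NHP2, a box H/ACA protein, went from 151, 151 and 152 CPM to 105, 97.4 and 105 CPM in Nalm6 and from 43.7, 44.1 and 42.2 CPM to 38.3, 37.2 and 36.4 CPM in CEM. The count of higher genes was 16 without Nalm6 prednisolone replicate 3. MYC also fell less in CEM (0.21 ± 0.05), and 5 of the 10 proliferation genes were called higher and 0 lower in this contrast. The dose differs between the lines, so line and dose cannot be told apart.

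Untreated CEM had less of most of these transcripts than untreated Nalm6 of the dexamethasone set: 33 of 44 genes were lower and 4 higher, with a median log2 fold change of -0.40, where 37.3% of all genes were lower and 40.2% higher. NHP2 had 43.7, 44.1 and 42.2 CPM in CEM against 138, 133 and 144 CPM (-1.71 ± 0.05 SE, edgeR adjusted p = 1.03e-12). NOP16, a large subunit factor, had 22.6, 22.0 and 23.8 CPM against 65.0, 66.0 and 67.1 CPM (-1.57 ± 0.05), and NPM1 was lower by 1.45 ± 0.05. No other gene of the list had a log2 fold change below -0.9. MYC was lower as well, at 271 ± 6.56 against 857 ± 65.6 CPM (-1.70 ± 0.05). The proliferation genes stood the other way, with 8 of 10 higher in CEM and sums of 4523 against 3064 CPM.

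The genes higher in CEM were 4. GAR1 had 20.3, 27.5 and 22.5 CPM against 13.0, 18.9 and 16.5 CPM (log2 fold change 0.51 ± 0.13), UTP20 had 101 ± 5.20 against 74.1 ± 1.13 CPM (SD, n = 3, log2 fold change 0.41 ± 0.05), and NOC4L had 39.1, 41.2 and 36.4 CPM against 27.5, 29.9 and 33.1 CPM (0.33 ± 0.07). NOP56 was higher by 0.15 ± 0.04. With the other untreated Nalm6 group in place of this one, NOP56 changed sign to -0.030 and UTP20 had a log2 fold change of 0.01, with 3 genes higher and 36 lower in all. Of the other pathway genes, 60 of 99 were lower and 10 higher, from NOL9, an rRNA-processing kinase (-1.55 ± 0.05), to SHQ1, a chaperone of DKC1 (1.30 ± 0.06).

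Both untreated groups of parental Nalm6 gave a gauge of how far sets of the same cells differ. The dexamethasone set's untreated libraries had 15 genes lower and 7 higher than the other untreated libraries, with a median log2 fold change of -0.04, where 24.4% of all genes were lower and 25.8% higher. With library totals alone as the scaling, these counts were 23 and 1. UTP20 had 75.4, 73.7 and 73.2 CPM against 105, 103 and 102 CPM (-0.42 ± 0.04 SE, edgeR adjusted p = 2.81e-06), and POLR1A, the largest Pol I subunit, had 196, 207 and 197 CPM against 273, 276 and 266 CPM (-0.38 ± 0.04). GAR1, at 13.0, 18.9 and 16.5 CPM against 21.5, 21.0 and 19.7 CPM, was lower too (-0.31 ± 0.10), a call lost without replicate 1 or 2 of the latter libraries.

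PES1, which forms a large subunit complex with WDR12, was higher in the dexamethasone set at 176, 183 and 186 CPM against 165, 163 and 157 CPM (log2 fold change 0.22 ± 0.04). NOB1 (0.20 ± 0.06) and MYBBP1A (0.18 ± 0.05) were called higher although their groups overlapped. MYC was higher by 0.28 ± 0.05. Among the other pathway genes, MDN1, a large ATPase that strips factors from large subunit precursors, was the lowest (-0.56 ± 0.04) and NOP10 the highest (0.33 ± 0.04). Differences of up to 0.42 on the log2 scale between untreated sets of this line are larger than any CHIR-99021 rise given above, but those rises were measured against untreated libraries of the same title. For the 44 genes, all differences between TLE1 KO and Nalm6 under dexamethasone (-0.23 to 0.35) were smaller than 0.42 too. Without treatment the differences ran from -0.29 to 0.58, and only FBL went beyond 0.42. What part differences between sets had in these values was not tested.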

How the data were processed

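Total RNA came from a spin-column kit and libraries from Illumina's usual workflow, per the labels' protocols. The authors deposited raw gene counts, in the layout the aligner STAR writes, with an unstranded and 2 stranded columns. The submitters' processing notes name hg19, Bowtie2 and DESeq2 without a role, and versions are not given in the sources used here. The column 4 gene totals were 12.3 to 15.3 times those of column 3, so column 4 was used. The 4 summary rows stayed out: unmapped (2.84% to 11.2% of a library), multiply mapped (4.83% to 7.55%), outside genes (18.4% to 32.7%) and ambiguous (4.70% to 7.45%). Groups follow the titles. The labels' treatment text gives prednisolone to Nalm6 and CHIR-99021 to TLE1 KO, whereas the titles and series text give CHIR-99021 to Nalm6 and prednisolone to TLE1 KO, and the titles also list prednisolone for Nalm6.

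Symbols came from a supplied name table (58695 of 62446 identifiers matched) and exon lengths from GENCODE release 29 (56643 matched); no coordinates were taken from it, because 52994 identifiers carry the suffix of records lifted to another build. Each comparison was fitted on its own groups with edgeR 4.0.16 (R 4.3.3): filterByExpr, TMM, quasi-likelihood F test and Benjamini-Hochberg adjustment over all genes tested, called at an adjusted p under 0.05. Standard errors come from the F statistic. Only the fits for prednisolone in Nalm6 and for the TLE1 KO minus Nalm6 response to it were tested on simulated counts. The simulated spread was the same for every gene and library, so the test does not cover uneven replicates. Replicates differed by more than sampling noise in all 33 pairs (chi-square per degree of freedom 1.85 to 43.7).

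The genes, their role groups and the other lists were chosen with earlier results of these data known. Named genes are the most abundant of each role, in each comparison the 3 largest called falls and rises and up to 5 called against the majority, the largest rise and fall among the other pathway genes, MYC, TLE1 and defining markers; POLR1B, RRN3, UTP15, NCL, NIP7, NOP2 and GAR1 are also given, chosen after their values were seen, where they stood apart or did not pass the test, and MKI67, MCM5 and RRM2 where they did. Alternatives were RLE size factors, library totals alone, DESeq2 1.42.0, a minimum of 10 counts in every library, no filter, column 2, the replicate block, the other untreated Nalm6 group and leaving out each library. CPM intervals are not given, since replicate spread exceeds counting error. One marker is not reported here.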

Additional observations from a re-analysis of the deposited data

Results flagged for a closer look

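Responses that differ between the lines were singled out by the test of the difference itself; doses differ in each. For prednisolone, CEM minus Nalm6, 10 of the 44 genes were higher and 1 lower. The differences in log2 fold change were 0.36 for NHP2, 0.35 for NPM1, 0.30 for UBTF and -0.34 for NIP7. Of the other pathway genes, TTF1 differed by 0.69, since it fell in Nalm6 (-0.67) and had a log2 fold change of 0.01 in CEM, and the helicase DDX31 differed by -0.23. MYC differed by 0.21. For CHIR-99021, CEM minus Nalm6, RRP15 differed by -0.26, a call that was lost in 9 of 19 alternatives, and MYC by -0.32.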

How the results depend on the processing

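Glucocorticoid counts were stable: 42 genes were lower under prednisolone in Nalm6 and 43 under dexamethasone in all alternatives run, 36 to 40 in TLE1 KO and 41 to 43 in CEM. Replicate numbers did not pair the libraries: in no comparison were all 3 same-number correlations above 0.1, although each library correlated best with its own number for prednisolone in Nalm6 (0.071, 0.19 and 0.15) and between the untreated Nalm6 sets. With the replicate block, CHIR-99021 raised 9 genes in Nalm6 in place of 18, and 9 in CEM in place of 13. With column 2, 6 genes were lower in untreated TLE1 KO, and 11 were higher between the untreated Nalm6 sets. With library totals alone those sets had 1 higher and 23 lower. With the other untreated Nalm6 group, NOP56 in CEM reversed to -0.030. The cause of each was not tested.

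Leaving out 1 library at a time gave 1 to 35 genes raised by CHIR-99021 in Nalm6 and 5 to 12 in CEM. In untreated TLE1 KO it gave 1 to 3 higher and 5 to 27 lower. It gave 0 to 1 raised by prednisolone in TLE1 KO, and 4 to 7 higher between the untreated Nalm6 sets. For the prednisolone response it gave 0 to 7 higher and 0 to 1 lower in TLE1 KO minus Nalm6, and 8 to 16 higher in CEM minus Nalm6. Of single genes named, 896 of the values under other settings kept direction and call, 17 lost and 3 gained the call and 1 reversed. With a library left out, 775 kept both, 57 lost the call and 2 gained it. With 3 libraries a group, the widest intervals of the response difference between TLE1 KO and Nalm6 reached -0.55 and 0.62.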
